A study of Mus musculus with 20 samples.

Results

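The genes described here are 10 transcripts usually made by choroid plexus, meninges or blood, followed across growth cones and somata of subcerebral projection neurons. They are Ttr, Ptgds, Igf2, Igfbp2, Igfbp7, Col1a1, Col1a2, Col3a1, Hba-a1 and Hbb-bs, and all 10 were found by symbol among the 55487 genes of the deposited count table. Growth cones are the tips of growing axons, and subcerebral projection neurons are the cortical neurons that send axons to the brainstem and spinal cord. The 20 RNA libraries came from mice at postnatal day 1 and form 4 groups of 5: wild-type (WT) growth cones taken from brainstem and spinal cord, growth cones from there with the genotype label Bcl11b KO, WT somata from cortex, and cortical somata labelled Bcl11b KO. The allele, any Cre driver, the strain, the way neurons were marked and purified, and whether animals were pooled are not given in the sources used here. The list is a fixed set of names, with no threshold, and was presumably chosen by levels measured in growth cones against somata of these libraries. Those levels are therefore given as a description, with no test, and tests of the members are kept to genotype and to variation among growth cone libraries. Genes of the comparison lists that are not members were tested between compartments too. By their titles, growth cone and soma libraries share no experiment number. Compartment and experiment therefore cannot be told apart in any comparison between them.

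Choroid plexus epithelium secretes cerebrospinal fluid and exports transthyretin, the product of Ttr, which carries thyroid hormone. Meningeal fibroblasts lay down the fibrillar collagens around the brain and make lipocalin-type prostaglandin D synthase, encoded by Ptgds. Insulin-like growth factor 2 is secreted by both tissues, and binding proteins of the Igfbp family hold such factors in the extracellular fluid. Adult haemoglobin of red blood cells is built from alpha chains (Hba-a1, Hba-a2) and beta chains (Hbb-bs, Hbb-bt).

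Library totals ran from 18962308 to 51205154 counts, and within groups from 26382991 to 29323028 in WT growth cones, 21657575 to 27723067 in KO-labelled growth cones, 18962308 to 36059112 in WT somata and 35243688 to 51205154 in KO-labelled somata. The soma libraries were made from 1.8 to 3.1 ng of RNA and the growth cone libraries from 0.19 to 3.1 ng, per the labels. Bcl11b itself stood at 655 ± 122 CPM (counts scaled to the library total; SD, n = 5) in WT somata and at 1082 ± 53.6 CPM (n = 5) in KO-labelled somata, which was higher by 0.71 ± 0.12 (log2, SE; edgeR quasi-likelihood test, adjusted p = 0.0153). In growth cones it stood at 108 ± 20.1 CPM and 108 ± 35.3 CPM (n = 5 each). Gene counts of Bcl11b thus go against the KO label in somata, and which exons were removed is not given, so the groups are called "labelled KO" throughout. All 10 genes listed for subcerebral projection neurons were measured in every group. They summed to 1262 to 2096 CPM over the 10 growth cone libraries and 2504 to 3546 CPM over the 10 soma libraries. How specific these genes are to such neurons was not tested. Neurod6 alone averaged 616 CPM in WT growth cones and 682 CPM in WT somata. Between WT compartments 6 of the 10 were lower in growth cones and 1 higher. Pcp4 averaged 317 CPM in WT growth cones and 40.6 CPM in WT somata.

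The globin members have near-identical neighbours, which bears on what their counts mean. The coding sequences of Hba-a1 and Hba-a2 have 429 bases and differ at 1 of them, C381T, and those of Hbb-bs and Hbb-bt have 444 bases and differ at 1, C417T; positions count from 1 at the A of the start codon, with the member's base first. The stretch around each difference is shown because only reads over it, or over untranslated sequence, can separate the copies (GENCODE release M21, capitals mark the differing base).
Hba-a1: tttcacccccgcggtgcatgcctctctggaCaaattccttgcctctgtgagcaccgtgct
Hba-a2: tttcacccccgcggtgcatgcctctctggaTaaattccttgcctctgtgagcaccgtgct
Hbb-bs: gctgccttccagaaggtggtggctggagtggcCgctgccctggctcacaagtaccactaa
Hbb-bt: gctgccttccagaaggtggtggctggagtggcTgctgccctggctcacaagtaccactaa
Of all 50-base windows in Hba-a1 transcripts, 27.7% do not occur in Hba-a2, and of those in Hbb-bs transcripts 46.8% do not occur in Hbb-bt. The read length and the treatment of reads with several matches are not given in the sources used here, so the split of counts within each globin pair is uncertain.

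The globin promoters are shown because the 2 globin members moved together across libraries, as described below. The sequence is from RefSeq (GRCm38.p6), 5′ to 3′ on the gene's strand, and capitals mark motif matches. A match is a description of the letters only, and why the 2 genes moved together was not tested. The 30-base windows lie inside the gene spans given below for Hba-a1 and Hbb-bs.
Hba-a1, chr11:32283422-32283510, plus strand, upstream of every annotated exon: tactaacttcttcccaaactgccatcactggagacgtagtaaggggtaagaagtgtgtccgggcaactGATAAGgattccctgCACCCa
Hba-a1, chr11:32283571-32283600, plus strand: aagcacaaaccagCCAATgagaactgctcc
Hba-a1, chr11:32283632-32283661, plus strand: cccttggagggcaTATAAgtgctacttgct
Hbb-bs, chr7:103828097-103828178, minus strand, upstream of every annotated exon: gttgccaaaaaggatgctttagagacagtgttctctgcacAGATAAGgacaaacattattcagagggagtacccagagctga
Hbb-bs, chr7:103827988-103828017, minus strand: accctggtaagggCCAATctgctcacacag
Hbb-bs, chr7:103827941-103827970, minus strand: ccagggcagagcaTATAAggtgaggtagga
A promoter entry existed for 8 of the 10 members, and 5 motifs were searched on both strands in the 250 bases before the start. GATAAG, letters read by erythroid GATA factors, was in both globin promoters and in none of the other entries of the members, against 6.55% of all 32851 promoters. AGATAA, which overlaps GATAAG by 5 letters in Hbb-bs, was in Hbb-bs and not in Hba-a1, against 9.99% of all promoters. CACCC was in both globins and in 52.0% of all promoters, CCAAT in both and in 33.8%, and TATAA in both and in 22.8%. Among the other members, CACCC was also in Ptgds, Igfbp2 and Col1a2 and in 3 of the 4 promoters of Igf2, CCAAT in Col1a2 and in 1 of those 4, and TATAA in Col3a1.

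Transcripts of the 2 secreted carriers were among the more abundant growth cone messages and close to absent from somata. Ttr (chr18:20665280-20674321, plus strand) read 353, 390, 256, 387 and 290 CPM in WT growth cone experiments 7 to 11, and 316, 273, 308, 225 and 352 CPM in KO-labelled ones. In somata it read 0.105 to 0.544 CPM in WT and 0.0705 to 0.225 CPM in libraries labelled KO, that is 2 to 18 and 3 to 10 counts. Every growth cone library thus lay far above every soma library, and the ratio of group means was 1346 in WT and 1960 in KO-labelled libraries. Ptgds (chr2:25466709-25470046, minus strand) read 347, 258, 425, 308 and 338 CPM in WT growth cones and 478, 385, 378, 237 and 241 CPM in KO-labelled ones. WT somata held 0.105 to 0.864 CPM of Ptgds. Of the somata labelled KO, experiment 14 held 11.9 CPM (464 counts) and the other 4 held 0.0851 to 0.316 CPM. That library set the KO-labelled ratio of Ptgds means to 134, against 769 in WT, while the ratios of medians were 1289 and 822. In bulk samples, fewer contributing cells and less RNA per cell cannot be told apart.

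The 3 genes of the insulin-like growth factor system did not share 1 pattern. Igf2 (chr7:142650766-142666816, minus strand), the ligand, was low everywhere: 0.656 to 2.96 CPM in WT growth cones, 0.739 to 4.34 CPM in KO-labelled ones, and at most 0.166 and 0.180 CPM in somata, where the 5 WT libraries held 8 counts in all and the 5 labelled KO held 7. For Igf2, too, growth cone libraries lay above soma libraries without overlap. Igfbp7 (chr5:77349240-77408041, minus strand), a secreted binding protein also made by vessels, read 10.2, 8.24, 16.0, 21.8 and 16.6 CPM in WT growth cones and 46.1, 35.5, 23.4, 9.06 and 17.7 CPM in KO-labelled ones. WT somata lay below, at 0.514 to 2.30 CPM, but somata labelled KO reached 10.6 CPM in experiment 25, above the lowest growth cone library labelled KO, and read 0.0284 CPM in experiment 26.

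Igfbp2, a binding protein made by choroid plexus and by many developing neural cells, was the exception among the members. It (chr1:72824503-72852474, plus strand) read 168, 157, 90.5, 192 and 102 CPM in WT growth cones and 172, 142, 113, 111 and 109 CPM in KO-labelled ones. WT somata read 152, 136, 139, 188 and 144 CPM, and somata labelled KO read 205, 205, 202, 266 and 293 CPM. WT growth cones and somata overlapped, with a ratio of means of 0.933. Among libraries labelled KO every soma library lay above every growth cone library, with a ratio of 0.554.

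The fibrillar collagens were present in all growth cone libraries and patchy in somata. Col1a1 and Col1a2 encode the chains of type I collagen and Col3a1 that of type III. Col1a2 (chr6:4504814-4541544, plus strand) read 48.7, 122, 78.2, 116 and 99.3 CPM in WT growth cones and 58.4, 107, 116, 88.6 and 22.4 CPM in KO-labelled ones. Col3a1 (chr1:45311538-45349706, plus strand) read 40.4, 89.9, 59.4, 36.2 and 50.2 CPM in WT growth cones and 74.7, 50.9, 88.6, 27.4 and 8.45 CPM in KO-labelled ones. Experiment 11 labelled KO was the lowest growth cone library for both genes. Col1a1 (chr11:94936224-94953042, plus strand) read 11.6, 12.8, 43.3, 9.82 and 24.0 CPM in WT growth cones and 15.5 to 30.3 CPM in KO-labelled ones, with WT experiment 9 the highest. In somata, WT experiment 25 held 3.02, 4.85 and 13.7 CPM of Col1a1, Col1a2 and Col3a1. KO-labelled experiment 15 held 2.82, 3.29 and 7.73 CPM of the same genes. Col1a1 and Col3a1 had 0 counts in WT experiment 26 and in KO-labelled experiments 22 and 26, which allows up to 3 counts.

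The adult globins were abundant in growth cones and low but countable in every soma library. Hba-a1 (chr11:32283511-32284465, plus strand) read 247, 313, 223, 130 and 151 CPM in WT growth cones and 280, 238, 324, 190 and 107 CPM in KO-labelled ones, against 1.51 to 6.02 CPM in WT somata and 0.227 to 8.11 CPM in KO-labelled somata. Hbb-bs (chr7:103826534-103828096, minus strand) read 137, 151, 101, 80.4 and 89.0 CPM in WT growth cones and 141, 127, 162, 144 and 80.8 CPM in KO-labelled ones. Its soma levels were 1.39 to 4.94 CPM in WT and 0.0567 to 7.36 CPM in libraries labelled KO. Growth cones and somata did not overlap for either gene, and soma experiment 26 labelled KO was the lowest of all libraries for both. Hba-a2 took 7.58% to 13.2% of alpha-globin counts in WT growth cones and 6.18% to 13.9% in KO-labelled ones. In somata it took 18.6% to 33.3% in WT and 21.9% to 57.9% in KO-labelled libraries, with the uncertainty about copies given above. The 57.9% was in KO-labelled experiment 26, with 11 counts of Hba-a2 and 8 of Hba-a1. The median of KO-labelled somata was 26.8%. Together the 10 members held 0.116% to 0.150% of counts in WT growth cones, 0.0957% to 0.159% in KO-labelled ones, and 0.0148% to 0.0295% in somata. Most of the soma share was Igfbp2, at 152 ± 21.3 CPM in WT and 234 ± 42.8 CPM in KO-labelled somata (SD, n = 5 each).

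**Figure D1:**
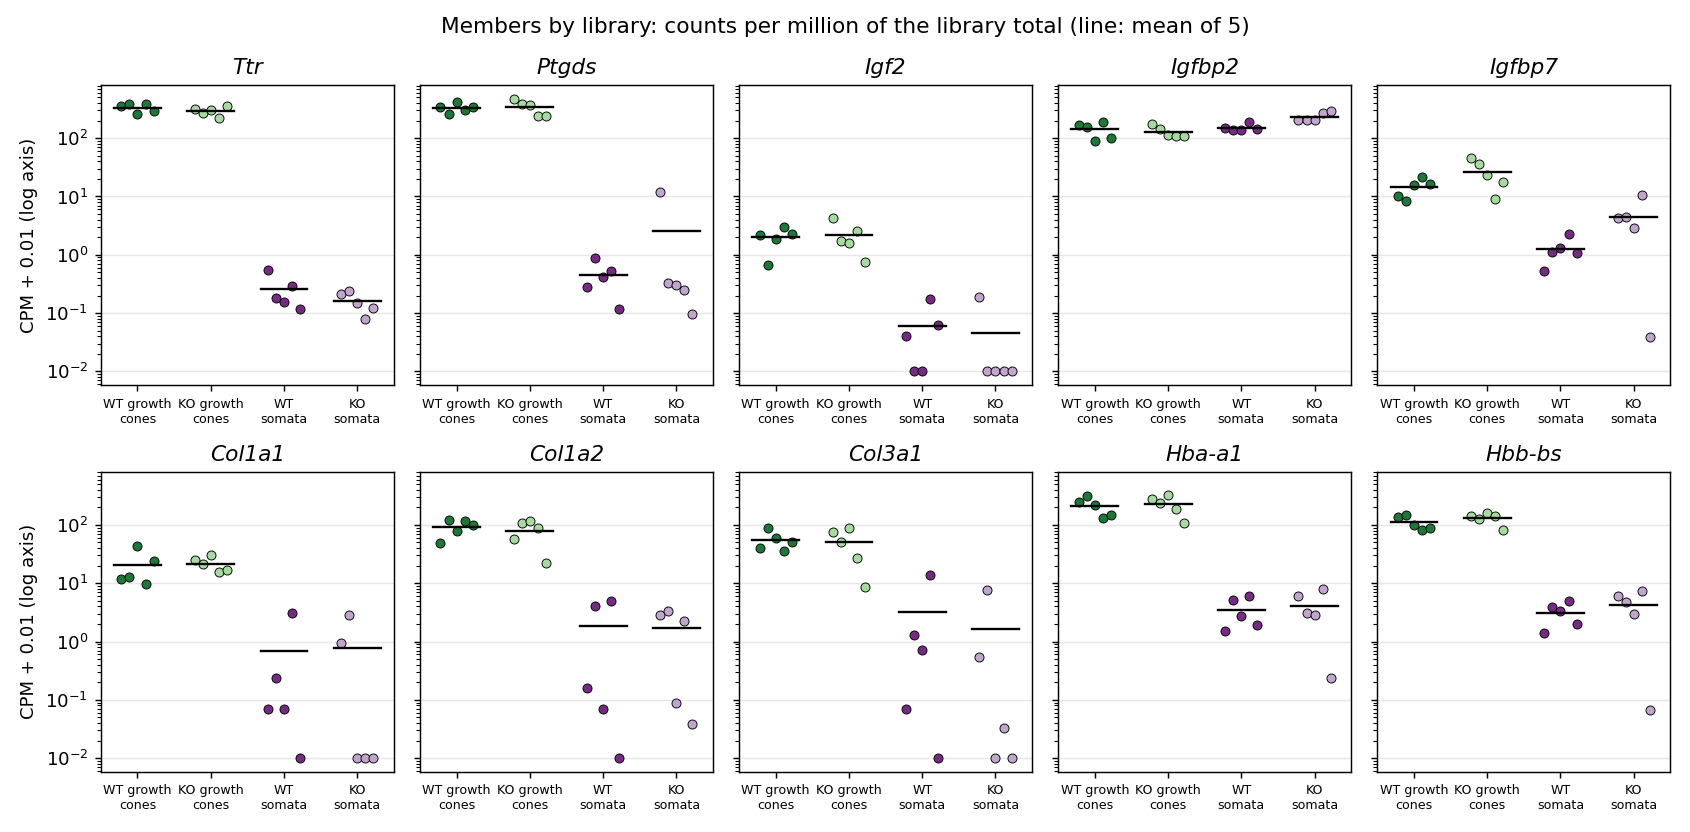
Levels of the 10 members in each library, as CPM plus 0.01 on a log axis, by group (5 libraries each, in order of experiment number; line, mean). Growth cone libraries lie above soma libraries for 9 members in WT, while Igfbp2 overlaps in WT and is higher in KO-labelled somata.

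In WT, 9 of 10 members had all growth cone libraries above all soma libraries, and Igfbp2 overlapped. The share of all tested genes with that pattern was 22.1% (higher in growth cones without overlap). Among libraries labelled KO, 8 of 10 members did so, as did 3085 of 15410 tested genes. Igfbp7 overlapped there, and Igfbp2 lay lower without overlap, a pattern of 15.7% of tested genes. In either direction 35.7% of tested genes did not overlap. This contrast is likely to be what chose the list, so nothing is read from these counts.

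Per kilobase of gene model, Ttr (283 ± 50.4 CPM per kb; SD, n = 5), Hba-a1 (262 ± 91.1), Ptgds (203 ± 37.0) and Hbb-bs (145 ± 40.0) led in WT growth cones. Each of these overlapped the next in its library values. Igfbp2 stood apart below them at 76.8 ± 23.6 CPM per kb. Igfbp7 (12.04 ± 4.49), Col1a2 (7.47 ± 2.41), Col3a1 (5.63 ± 2.18) and Col1a1 (3.10 ± 2.13) followed, each overlapping its neighbour, and Igf2 was apart and lowest at 0.345 ± 0.147 CPM per kb. Growth cones labelled KO had the same order except that Hba-a1 (280 ± 103) came before Ttr (248 ± 40.6), which overlapped. Among the 24021 genes with a count in WT growth cones, Ttr ranked 209, Hba-a1 232, Ptgds 309, Hbb-bs 454 and Igf2 17211 by CPM per kb. In WT somata Igfbp2 led at 82.3 ± 11.5 CPM per kb, apart from Hba-a1 at 4.28 ± 2.48.

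Other markers of the source tissues were also counted in growth cones. With Ttr left out, 17 choroid plexus markers summed to 109 ± 38.5 CPM in WT growth cones, 92.3 ± 28.6 in KO-labelled ones, 6.10 ± 5.05 in WT somata and 4.31 ± 1.24 in KO-labelled somata (SD, n = 5 each). Their leading genes by mean over all 10 growth cone libraries were Enpp2 (29.5 ± 9.91 CPM in WT growth cones), which makes lysophosphatidic acid and is expressed outside the choroid plexus too, Slc13a4 (21.04 ± 16.2), Calml4 (11.5 ± 8.94) and Sostdc1 (7.35 ± 5.47). Other choroid plexus genes differed in how many of the 20 libraries, 10 of them somata, held a count. Otx2, a transcription factor of the choroid plexus (6.68 ± 6.64 CPM in WT growth cones), Kcne2, a potassium channel subunit (9.54 ± 13.8 CPM), and Folr1, a folate receptor, had counts in 10 libraries each, and Clic6 in 9. Kcnj13 and Kl had counts in 6, F5 in 5, Tmem72 in 4, Slc4a5 and Lmx1a in 3 and Cldn2, a tight-junction claudin, in 2. These numbers pool both compartments, and a single count sufficed. Otx2 averaged 0 CPM in WT somata and 0.00451 CPM in KO-labelled ones. Folr1 averaged 0.362 CPM in KO-labelled somata and 0.237 CPM in KO-labelled growth cones. Of the 17, only 4 were abundant enough to be tested between WT compartments and 4 were higher in growth cones (median log2 difference 4.93, against 0.07 over all genes tested; 23.1% of tested genes were called higher and 19.7% lower). Genes enter this test mostly through the group in which they are high, so such counts are no support for the list.

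Meningeal and erythroid markers differed in how complete they were. Without the collagens, 17 meningeal fibroblast markers summed to 212 ± 50.03 CPM in WT growth cones and 89.2 ± 24.4 CPM in WT somata, and all 17 were abundant enough to be tested between genotypes in growth cones. Between WT compartments 13 were tested and 9 were higher in growth cones, against 23.1% of all genes tested and with the same limit that genes enter the test mostly through the group in which they are high. Among the 9 were Aldh1a2, the retinoic acid-making enzyme (26.9 ± 18.4 against 0.0402 CPM), and Dcn, the proteoglycan decorin (24.1 ± 10.02 against 0.353 CPM). Ccn3, not among the 9, was the most abundant of the 17 over growth cones (34.0 ± 9.99 CPM in WT) and stood at 56.0 CPM in WT somata. Fbln1 (12.7 against 16.6 CPM), Postn (7.41 against 10.7) and Lum (3.10 against 3.53) also had lower means in WT growth cones than in WT somata. In KO-labelled libraries 13 of the 17 were tested between compartments. Of these, 6 were higher in growth cones and 1 lower, against 21.6% and 17.0% of all genes tested. Without the 2 members, 14 erythroid genes summed to 73.4 ± 17.9 CPM in WT growth cones and 41.5 ± 8.75 in WT somata, of which the transferrin receptor Tfrc, expressed by many cells, made up 23.4 and 37.997 CPM. Alas2, the erythroid haem enzyme, read 6.91 ± 9.84 CPM in WT growth cones and had counts in 11 of 20 libraries. The embryonic globins Hbb-bh1, Hbb-y and Hba-x and the erythroid factor Gata1 had 0 counts in all 20 libraries, which allows up to 3 counts per library. Slc4a1, the anion exchanger of the red cell membrane, had counts in 1 library. Between genotypes in growth cones 5 of the 14 erythroid genes were abundant enough to be tested, as were 8 of the 17 choroid plexus genes above.

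Markers of other cell types also had higher mean sums in growth cones. Ependymal genes summed to 54.8 ± 21.6 CPM in WT growth cones and 3.14 ± 2.59 in WT somata, mural cell genes to 51.9 ± 24.3 and 5.73 ± 3.13, and endothelial genes to 88.5 ± 38.2 and 22.5 ± 9.41, where the lowest growth cone library (32.1 CPM) lay below the highest soma library (32.5 CPM). In WT, genes of other blood cells and microglia summed to 101 ± 21.04 and 41.2 ± 33.0 CPM, also with overlapping libraries. The part of such cells in the members' levels was not tested.

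**Figure D2:**
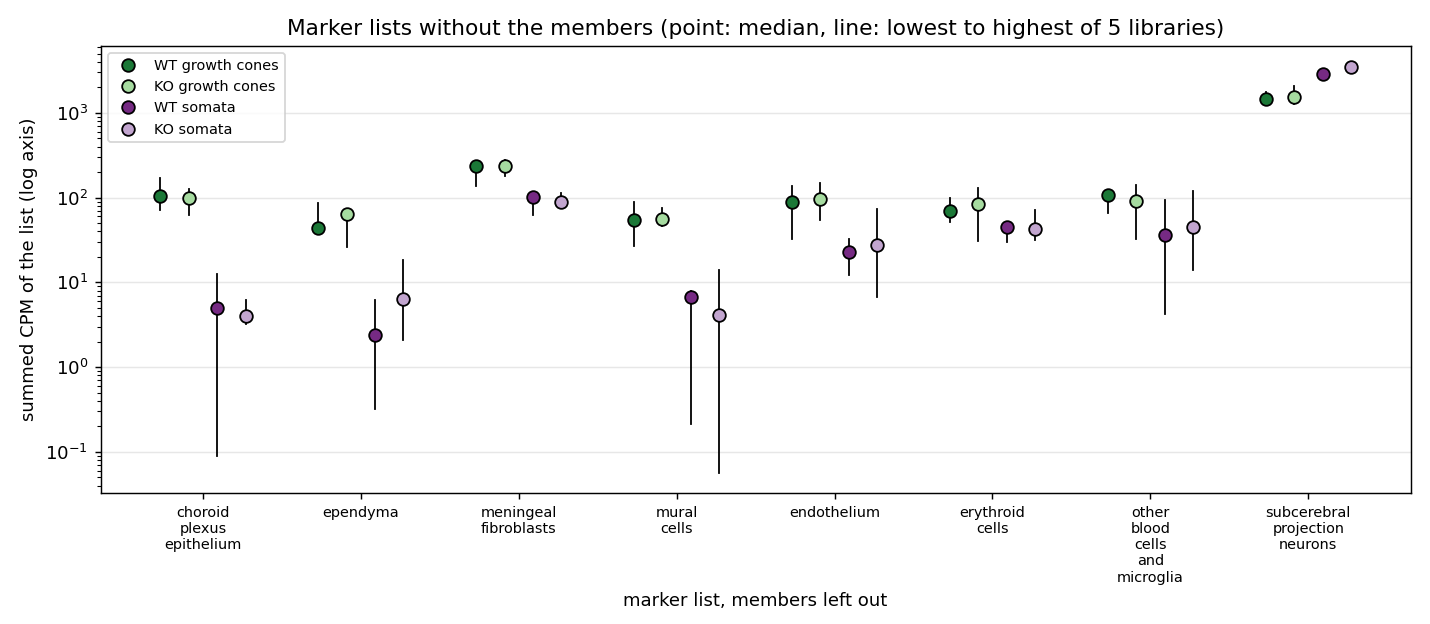
Summed CPM (log axis) of marker lists with the members left out, by group (point, median; line, lowest to highest of 5 libraries). Choroid plexus, ependymal, meningeal fibroblast and mural lists lie higher in growth cones than in somata, and the projection neuron list lies higher in somata.

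Other genes of the members' pathways were compared between compartments, where 23.1% of all genes tested in WT were higher in growth cones and 19.7% lower, with a median log2 difference of 0.07 (0.11 in KO-labelled libraries). Of 20 further insulin-like growth factor genes, 16 were tested in WT, 4 were higher in growth cones and 2 lower, shares near or below those of all genes, with a median log2 difference of -0.08 (-0.20 in KO-labelled libraries). H19, the noncoding RNA next to Igf2, was higher by 5.30 ± 1.19 (log2, SE; edgeR adjusted p = 0.00346), and the binding protein gene Igfbp4 by 2.57 ± 0.27 (adjusted p = 1.49e-05). The adaptor gene Irs2 was lower, with a log2 difference of -1.59 ± 0.30 (adjusted p = 0.00123). Of 19 further genes of prostaglandin D2, retinoid and thyroid hormone handling, 14 were tested, 4 were higher and 2 lower, with a median of 1.64 (2.06 in KO-labelled libraries). Of 25 further genes of collagen and its assembly, 20 were tested, 3 were higher and 1 lower, with a median of 1.19 (1.62 in KO-labelled libraries). These medians cover tested genes only, which enter mostly through the group in which they are high. In WT the matrix protein gene Sparc was higher by 3.47 ± 0.38 (edgeR adjusted p = 2.30e-05). P4hb, the disulfide isomerase subunit of prolyl hydroxylase, was lower, at -0.86 ± 0.20 (edgeR adjusted p = 0.00495). H19, Igfbp4, Sparc and P4hb were named for their growth cone levels, and Irs2 after its values were seen. H19 averaged 0.806 CPM in WT somata and entered the test through growth cones. The p-values of these genes are therefore a description and no support for the list.

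Between genotypes in growth cones, 0 of the 10 members passed the threshold, and 0% of the 15419 genes tested did (edgeR quasi-likelihood test with Benjamini-Hochberg adjustment, false discovery rate 0.05). At an unadjusted p under 0.05 there were 329 genes (2.13%) and no member, and DESeq2 called 11 genes and no member. Ttr differed by -0.16 ± 0.18 (log2, labelled KO minus WT, SE), with a 95% interval of -0.52 to 0.19. Intervals here and below use a normal approximation, which makes them too narrow for groups this small. Igfbp7 had the largest difference, 0.90 ± 0.52 with an interval of -0.12 to 1.92, and its groups overlapped. For Col3a1 the interval ran from -1.14 to 0.91, and for Hbb-bs from -0.24 to 0.72. All 10 members had an adjusted p of 0.999, and all 10 overlapped between genotypes, where 0.493% of tested genes did not. Of the fixed lists, no gene passed in growth cones.

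Between genotypes in somata, 7 members were abundant enough to be tested, and Ttr, Igf2 and Col1a1 were not. None of the 7 passed, against 0.731% of the 14911 genes tested. Igfbp2 was the closest, at 0.61 ± 0.14 (log2, SE; interval 0.33 to 0.89, unadjusted p = 0.00106, edgeR adjusted p = 0.09995). All 5 soma libraries labelled KO lay above all 5 WT ones for Igfbp2, a pattern of 1.88% of tested genes. With DESeq2 the same difference had an adjusted p of 0.00302, and over all alternatives it ran from 0.51 to 0.71 with adjusted p from 0.00302 to 0.592. Ptgds differed by 2.49 ± 1.29, which became -0.89 without KO-labelled experiment 14. Igfbp7 differed by 1.79 ± 0.94 (adjusted p = 0.687). Col3a1 differed by -0.93 ± 1.90, which became 1.70 without WT experiment 25 and -4.52 without KO-labelled experiment 15. Of the marker lists, genes that passed in somata were 6 of the 10 projection neuron genes (Bcl11b, Etv1, Tox and Neurod6 higher, Pcp4 and Crym lower), and Crym, which binds thyroid hormone, is also in the hormone carrier list.

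**Figure D3:**
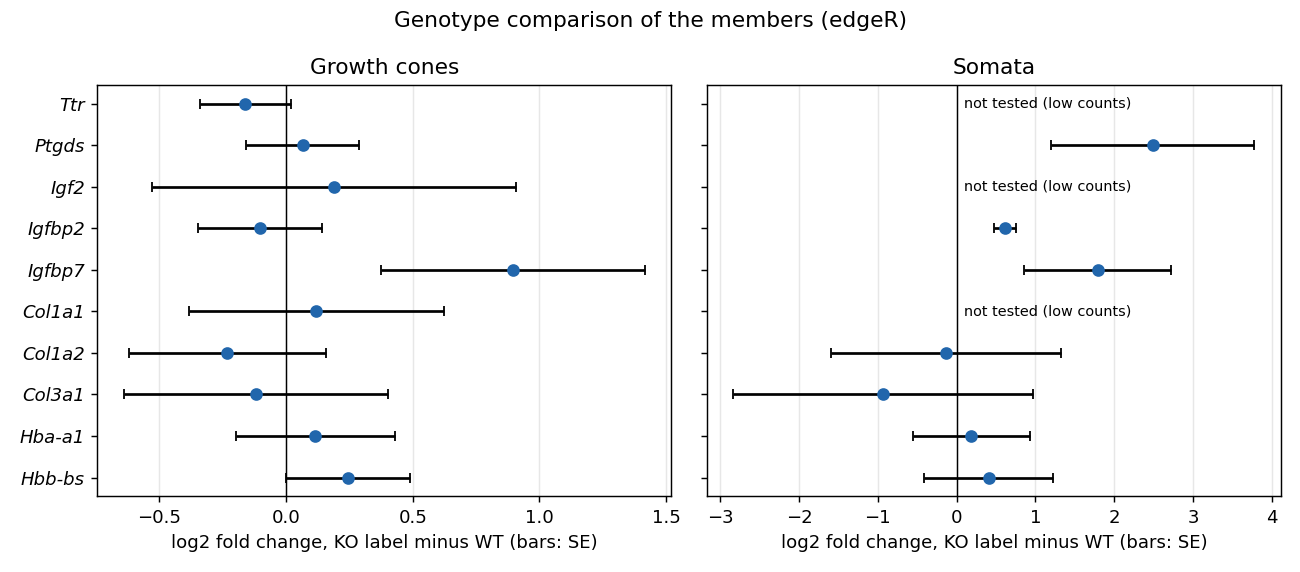
Log2 fold change of each member, labelled KO minus WT, in growth cones and in somata (point, edgeR estimate; bar, SE; 5 libraries a group; the panels have different horizontal scales). Igfbp2 in somata, at 0.61 ± 0.14, has the smallest error of the soma estimates, and 3 members were too low to be tested there.

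Whether the genotype difference itself differed between compartments was tested over all 20 libraries. The compartments share no experiment number, so such a difference cannot be told apart from one between experiments. None of the 10 members passed, against 0.0397% of 17645 genes. Igfbp2 had an interaction of -0.73 ± 0.30 (log2, SE; unadjusted p = 0.0236, edgeR adjusted p = 0.587), and Ptgds one of -2.37 ± 1.23 (adjusted p = 0.768), which became 0.96 without KO-labelled soma experiment 14.

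Among the 10 growth cone libraries the 45 pairs of members were compared on log2 of CPM + 0.5 with TMM scaling. Pearson's r was above 0 in 36 of 45 pairs, with a median of 0.20. The globin pair had r = 0.90 (permutation p, adjusted over 45 pairs, 0.0214) and Spearman's rho = 0.92 (permutation, adjusted p = 0.0211), and r = 0.81 without the 2 libraries farthest from the median of Hba-a1. Col3a1 and Hba-a1 had r = 0.83 (permutation, adjusted p = 0.0214), r = 0.81 without the 2 farthest libraries, and rho = 0.82 (permutation, adjusted p = 0.121). When each library was left out in turn the globin pair passed in 3 of 10 cases and Col3a1 with Hba-a1 in 4 of 10, with adjusted p up to 0.0882 and 0.215. Leaving out a library, r of the globin pair stayed between 0.88 and 0.96. It passed without WT experiment 7, WT experiment 9 or KO-labelled experiment 10, and not without any of the other 7. Col3a1 with Hba-a1 passed without WT experiment 7, 9 or 11 or KO-labelled experiment 10, and not without any of the other 6. With genotype means subtracted, r was 0.93 for the globin pair and 0.88 for Col3a1 with Hba-a1.

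No other pair passed, and the pairs named next were picked after all 45 had been seen. Col1a1 and Col1a2, whose products assemble into 1 molecule, had r = 0.03 (permutation, adjusted p = 0.987). Col1a2 and Col3a1 had r = 0.74 (adjusted permutation p = 0.321), which was 0.058 without KO-labelled experiment 11 and WT experiment 7, so it rests on those libraries. Ttr and Igfbp2 had r = 0.67 (adjusted permutation p = 0.321), and Igfbp2 and Col1a1 had r = -0.63 (adjusted permutation p = 0.321). Ttr and Ptgds had r = -0.05. Among the 10 soma libraries, chosen after the growth cone values were seen and adjusted over 4 pairs, the globin pair had r = 0.97 and rho = 0.96 (permutation, adjusted p = 8.0e-05 and 0.00028), and r = 0.90 without KO-labelled experiments 25 and 26. The collagen pairs passed there too: Col1a1 and Col3a1 had r = 0.93 and rho = 0.92 (permutation, adjusted p = 0.00528 and 0.0018), Col1a1 and Col1a2 had r = 0.73 and rho = 0.83 (permutation, adjusted p = 0.00664 and 0.00555), and Col1a2 and Col3a1 had r = 0.71 and rho = 0.83 (permutation, adjusted p = 0.0108 and 0.00555). Without the 2 farthest libraries, which included WT experiment 25 each time, r was 0.57, 0.63 and 0.60. Median counts in WT and KO-labelled somata were 2 and 0 of Col1a1, 24 and 1 of Col3a1 and 5 and 96 of Col1a2. The collagen values there therefore rest in part on libraries at or near 0 counts. Soma correlations used CPM of library totals, without the TMM scaling used for growth cones.

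**Figure D4:**
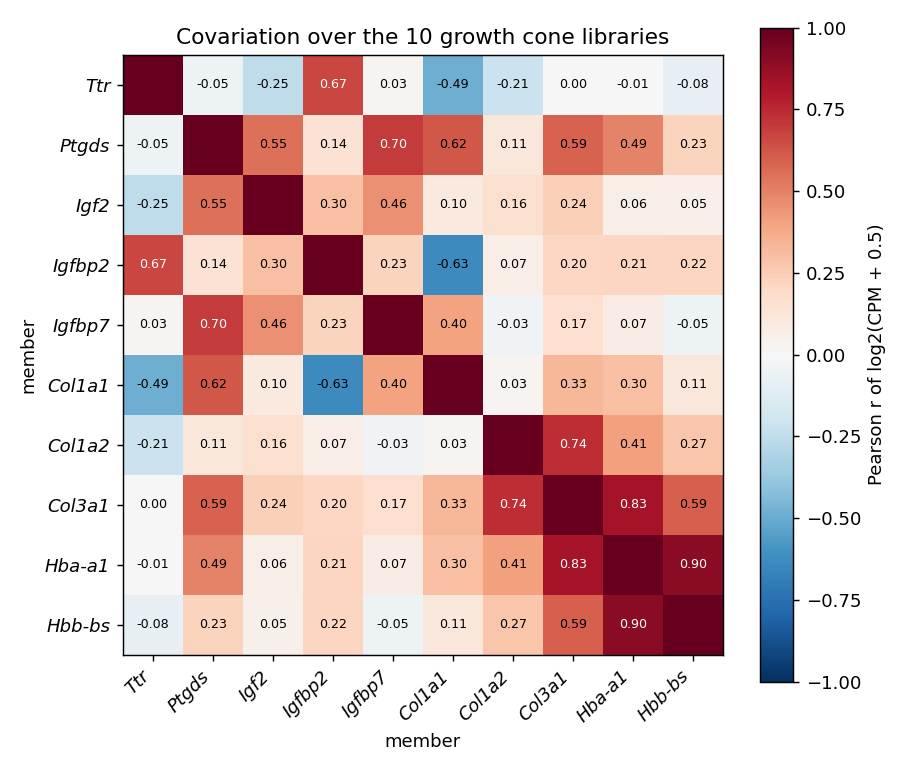
Pearson's r of log2(CPM + 0.5) for each pair of members over the 10 growth cone libraries (colour and number in each cell). The highest values are 0.90 for the globins and 0.83 for Col3a1 with Hba-a1, and Col1a1 with Igfbp2 is at -0.63.

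**Figure D5:**
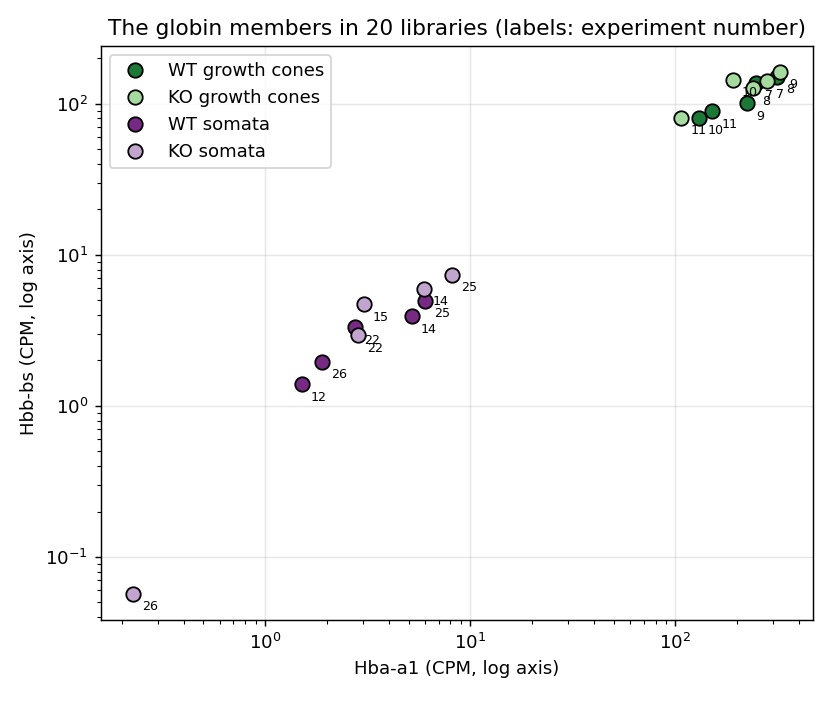
Hba-a1 against Hbb-bs in CPM, both axes log, for all 20 libraries (colour, group; number, experiment). Growth cone libraries sit at 107 to 324 CPM of Hba-a1, soma libraries at 0.227 to 8.11 CPM, and KO-labelled soma experiment 26 is the lowest in both.

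The genes most like 4 members over the 10 growth cone libraries were ranked by Pearson's r among 11786 genes averaging 5 CPM or more, as a description with no p. For Ttr they were Snrpc (r = 0.92), Fkbp2 (0.89) and Kcna4 (0.89), and Igfbp2 was at rank 217. For Igfbp2 they were Maf1 (0.87), Gtf3c6 (0.86) and Supt5 (0.86). For Col1a1 they were Apc2 (0.82), Mnt (0.81) and Ptprd (0.81), and Ptgds was at rank 138. For Hbb-bs they were Vsig10l (0.93), 2410004B18Rik (0.93) and Cdk4 (0.91), with Hba-a1 at rank 4. No marker gene of the fixed lists was among these.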

How the data were processed

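The values are raw counts per gene, deposited by the authors as 1 table with 20 library columns and no scaling. Per the submitters' processing notes, Trimmomatic 0.39, STAR 2.7.1a and featureCounts 1.5.0 were used, with the build GRCm39. The table's own coordinates are those of GRCm38: 54435 of 55487 genes (98.1%) have the exon list of GENCODE release M21, so coordinates and symbols here follow it. The use of strand is not given in the sources used here. The table held 0 entries naming no gene and 0 columns without a sample. Libraries were grouped by title, and the experiment number names the library. The labels do not say whether the libraries of a group come from separate animals, so p-values measure the spread between libraries.

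The members and gene lists were chosen with earlier results of these data known. Genotype and compartment were tested with edgeR 4.0.16 (filterByExpr minimum count 10, TMM, quasi-likelihood F test, Benjamini-Hochberg at 0.05; R 4.3.3) on the groups compared, the interaction on all 20 libraries; fits were tested on simulated data. DESeq2 1.42.0 was an alternative, with other scalings, no filter, a replicate block, 1 fit of all libraries and each library left out. Correlations used 100000 permutations, two-sided (python 3.11.15, scipy 1.17.1). CPM refers to library totals. Chi-square per degree of freedom between replicates was at least 52.7, so none was merged. Named genes were the members, up to 4 most abundant genes of each list in growth cones, list genes at 0 throughout or past the genotype threshold, and the 3 genes most like each of 4 members; genes outside this rule, such as Cldn2, Slc4a5, Otx2, Kcne2, Irs2 and the pairs named after the tests, were chosen after their values were seen. Motifs were also chosen without a prior rule. Ahsp was not matched, and Nov was read as Ccn3. Results for 2 genes of the lists are not reported here.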

Additional observations from a re-analysis of the deposited data

Results flagged for a closer look

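Within each group of 5 libraries, the gap of the highest or lowest library to its neighbour was compared with the group's range (Dixon's 95% value), for the 10 members in 4 groups, 40 groups in all. On CPM 5 groups had a library apart, and on log2 of CPM + 0.5, a scale chosen after the levels were seen, 4 of these did. All of these libraries lay high and all were in somata, where most libraries of the group held few counts. Chance gives about 1 in 20 for normally distributed values, which such counts are not. No excess over chance is therefore read from these groups. KO-labelled experiment 14 held 11.9 CPM of Ptgds (464 counts) and 0.180 CPM of Igf2 (7 counts, the other 4 at 0). WT experiment 25 held 3.02 CPM of Col1a1 and 13.7 CPM of Col3a1, the latter apart on CPM only. KO-labelled experiment 15 held 7.73 CPM of Col3a1. A cause was not tested.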

How the results depend on the processing

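No member passed in a genotype or interaction test under any alternative run except Igfbp2 in somata with DESeq2 (1 member called, log2 0.61, adjusted p = 0.00302). Counts of all genes moved more: in growth cones 11 with DESeq2 and 7 with all libraries in 1 fit against 0, in somata 402, and 30 in 1 fit, against 109, and for the interaction 262 with DESeq2 against 7. Libraries of the same experiment number were weakly correlated (correlation of deviations 0.017 to 0.108 in growth cones and -0.016 to 0.105 in somata). Still, 4 of 5 WT growth cone and 3 of 4 WT soma libraries correlated best with their own number. The main genotype tests did not use the number, and whether it pairs the libraries was not tested. With the number as a replicate block, 34 genes passed in somata and 0 in the interaction, Hba-a1 and Hbb-bs in somata turned to -0.47 and -0.57, and interactions turned to 3.13 for Col1a1, 0.18 for Col1a2, 0.44 for Hba-a1 and 0.70 for Hbb-bs. Size factors gave 0.0050 for the Col1a1 interaction. The cause was not tested.

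Leaving out each library in turn gave 67 (without KO-labelled experiment 22) to 107 genes in somata, where WT experiment 22 left 68, and 5 to 12 in the interaction, with 12 without WT and 11 without KO-labelled growth cone experiment 7. The pairs past the threshold numbered 0 to 2, and r of Col1a1 and Col1a2 ran from -0.091 to 0.19. Differences that changed sign, none of them past the threshold, ran in growth cones from -0.12 to 0.18 for Ptgds, -0.26 to 0.41 for Igf2, -0.26 to 0.015 for Igfbp2, -0.060 to 0.59 for Col1a1, -0.42 to 0.00024 for Col1a2, -0.42 to 0.15 for Col3a1 and -0.046 to 0.30 for Hba-a1. In somata they ran from -0.89 to 2.87 for Ptgds, -0.54 to 0.66 for Col1a2, -4.52 to 1.70 for Col3a1 and -0.23 to 0.49 for Hba-a1. Interactions ran from -2.69 to 0.96 for Ptgds, -0.52 to 4.01 for Igf2, -2.89 to 1.74 for Col1a1, -0.88 to 0.34 for Col1a2, -1.83 to 4.45 for Col3a1, -0.38 to 0.35 for Hba-a1 and -0.48 to 0.13 for Hbb-bs. Ttr, Igf2 and Col1a1 were too low in somata for a genotype test, and several soma libraries held few counts of the collagens. The deepest library, KO-labelled soma experiment 22 with 51205154 counts, held 0 counts of Col1a1 and Col3a1 and 4 of Col1a2. The cause of these low counts was not tested.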
